A study of Mus musculus with 2 samples.

Results

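The 10 mouse genes described here encode the transforming growth factor beta (TGF-beta) ligands Tgfb1, Tgfb2 and Tgfb3, the receptors Tgfbr1, Tgfbr2 and Tgfbr3, and the latent TGF-beta binding proteins Ltbp1, Ltbp2, Ltbp3 and Ltbp4. Every probe that carries 1 of these names in the scanner files was taken, which gave 15 of the 41174 distinct probes and 10 of 28090 distinct gene entries. The study measured NIH3T3, an established mouse fibroblast line, on single-colour Agilent expression arrays. One group holds cells stably transfected with pcDNA3.1-MARVELD1 under G418 selection, and its control holds cells with the pcDNA3.1 plasmid alone. Each group has 1 array, and the labels do not say whether a stable line was a clone or a pool. No difference below therefore has a replicate check, and no test between the groups was possible.

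The gene named in the label did not read higher. Marveld1, a membrane protein with a MARVEL domain, had an intensity of 6292.8 on the array labelled MARVELD1 and 8724.7 on the empty vector array at its brighter probe, a log2 difference of -0.34. The dimmer Marveld1 probe read 126.4 on the array labelled MARVELD1 and 184.4 on the empty vector array, a log2 difference of -0.42. Whether either probe matches the plasmid's insert is not known, so the group is called the array labelled MARVELD1 throughout, and every direction below rests on that label.

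TGF-beta is made as a precursor whose propeptide stays wrapped around the mature growth factor and keeps it latent. Latent TGF-beta binding proteins attach to this complex and tether it to fibrillin and fibronectin in the matrix, from which integrins or proteases release it. The free ligand joins the type II receptor Tgfbr2 to the type I receptor Tgfbr1, which phosphorylates Smad proteins, and betaglycan, the product of Tgfbr3, presents ligand to them. Fibroblasts both make and respond to TGF-beta, which is known for driving matrix production and contractile gene expression.

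The probe sequences below are those on which the differences between members turn, including every probe of the genes whose probes disagree. Each probe has 60 bases. The sequence of Tgfb1 and those of the Tgfbr2 probe A_52_P251403 and the Ltbp3 probe A_52_P652936 are whole, and the others are the last 30 bases as deposited. Capitals mark AATAAA, the letters of the commonest polyadenylation signal.
Tgfb1 A_51_P390715: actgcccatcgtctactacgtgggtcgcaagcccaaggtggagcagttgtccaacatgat
Tgfb3 A_51_P124748: gatgcacagactgaagtataaagacaaata
Tgfbr1 A_52_P4538: cagatggtactgtattgtttatatctgtac
Tgfbr2 A_51_P450573: actagtgggatttctagggttcaaaagtga
Tgfbr2 A_52_P251403: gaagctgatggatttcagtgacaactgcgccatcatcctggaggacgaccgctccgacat
Tgfbr2 A_52_P3811: ttctggaaaagaagaacacccctcatcctc
Ltbp1 A_51_P281716: ttttcaaaaacccagtatatatagtttgtt
Ltbp1 A_52_P189946: cttgcctctaaccatgactagccagcaagg
Ltbp2 A_51_P257457: tgggggttcaggagcatgggggAATAAAat
Ltbp3 A_51_P233101: atcagatctgcccctttaatttactcttgg
Ltbp3 A_52_P652936: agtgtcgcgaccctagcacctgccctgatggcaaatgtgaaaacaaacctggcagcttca
AATAAA was searched on the deposited strand only and stood in 1 of the 15 member probes, that of Ltbp2, against 4.77% of all 41084 probes. ATTAAA, a common variant counted separately, stood in 0 member probes and in 2.90% of all probes. The coordinates below are the files' own, on mouse build mm9. No mm9 annotation was used, so the exon, intron or untranslated status of each probe cannot be stated.

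Intensities are background-subtracted fluorescence readings. A log2 difference is the array labelled MARVELD1 minus the empty vector array, after the 75th percentile of each array was subtracted. The array labelled MARVELD1 had a 75th percentile of 703.3 and 69.0% of spots well above background, and the empty vector array had 768.1 and 68.7%. Over all 26802 probes well above background on both arrays the median log2 difference was 0.15, with quartiles of -0.19 and 0.45. Differences of members are therefore also given relative to that median. Among 245 probes printed repeatedly, the SD of the log2 difference of single spots was 0.49 in the dimmest of 4 brightness classes and 0.12 in the brightest. This spread is technical and covers neither cultures nor labellings.

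No member reached a 2-fold difference. Of the 14 member probes well above background on at least 1 array, 0 were 2-fold higher and 0 were 2-fold lower on the array labelled MARVELD1, where 5.88% and 4.54% of all 29537 such probes were (10.4% in either direction). After array median scaling the split of all probes past 2-fold turned, from 1736 higher and 1341 lower to 1318 higher and 1665 lower. At a 1.5-fold limit, 2 member probes were higher and 3 were lower, against 18.5% and 11.0% of all such probes (29.5% in either direction). By gene, taking as the brightest probe of each that with the highest mean log2 intensity over both arrays, 0 of the 10 members passed 2-fold in either direction, where 5.38% of 16532 genes were higher and 3.51% were lower (8.9% in either direction). At 1.5-fold 1 member gene was higher and 2 were lower, against 19.4% and 8.86% of all genes. The 13 member probes measured on both arrays had a median log2 difference of 0.10, which is -0.05 relative to all probes, and ranged from -0.75 to 0.92. The sign of that median depends on scaling: it was -0.01 after array median scaling. Relative to the all-probe median, 6 of these probes lay above and 7 below.

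**Figure D1:**
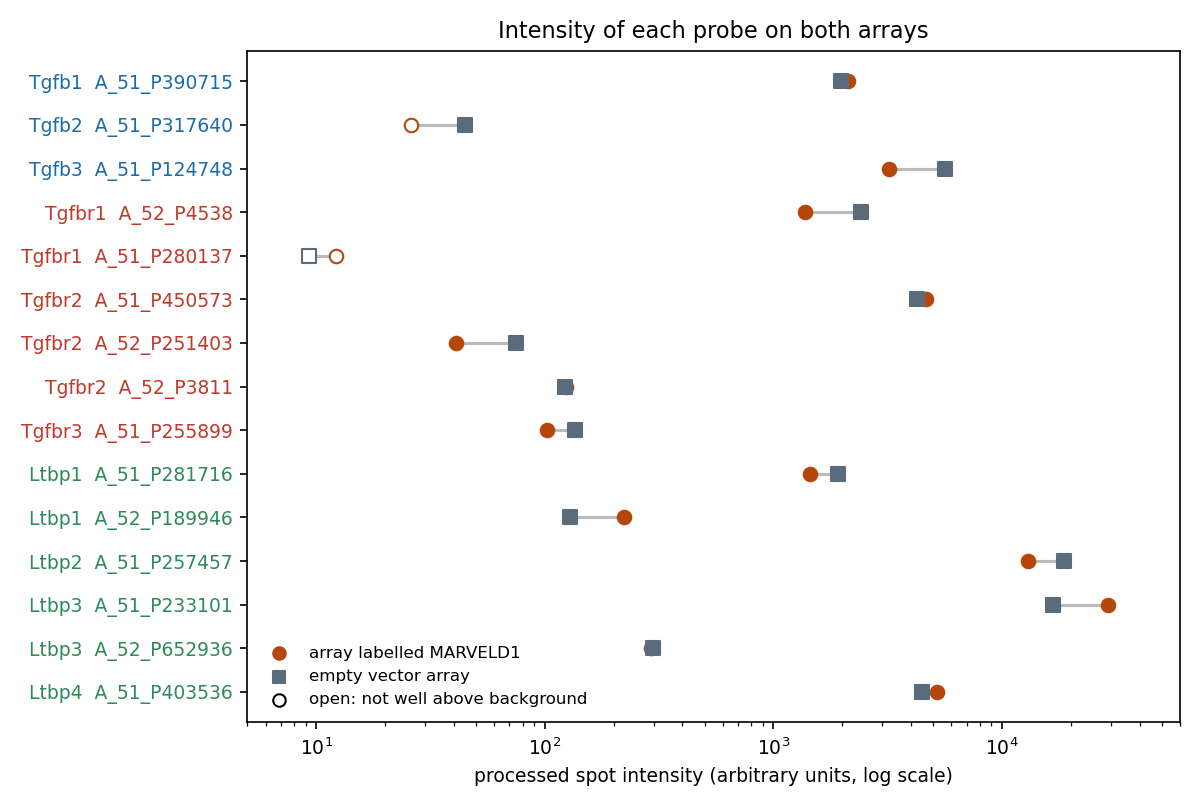
Intensity (log scale) of each of the 15 member probes on the array labelled MARVELD1 (circles) and the empty vector array (squares), with open symbols where the probe was not well above background and label colours for the 3 roles. The pairs lie close together, and the widest gaps among bright probes are those of Tgfb3, the Tgfbr1 probe A_52_P4538 and the Ltbp3 probe A_51_P233101.

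Among the ligands, Tgfb3 read lower on the array labelled MARVELD1, Tgfb1 read nearly level, and Tgfb2 lay near background. Tgfb1 encodes the ligand best known from wound repair and fibrosis. Its probe (chr7:26489877-26489936, plus strand) averaged 2122 ± 168 on the array labelled MARVELD1 over 10 spots and 1969 ± 175 on the empty vector array over 8 spots (SD over spots of 1 array). The spots ran between 1886.8 and 2368.1 on the array labelled MARVELD1 and between 1717.4 and 2198 on the empty vector array, so the ranges overlapped. Its log2 difference was 0.24, or 0.09 relative to all probes. At the 8 positions usable on both arrays the single-spot log2 differences averaged 0.25 ± 0.13 and all 8 lay above 0, while 7 lay above the all-probe median.

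**Figure D2:**
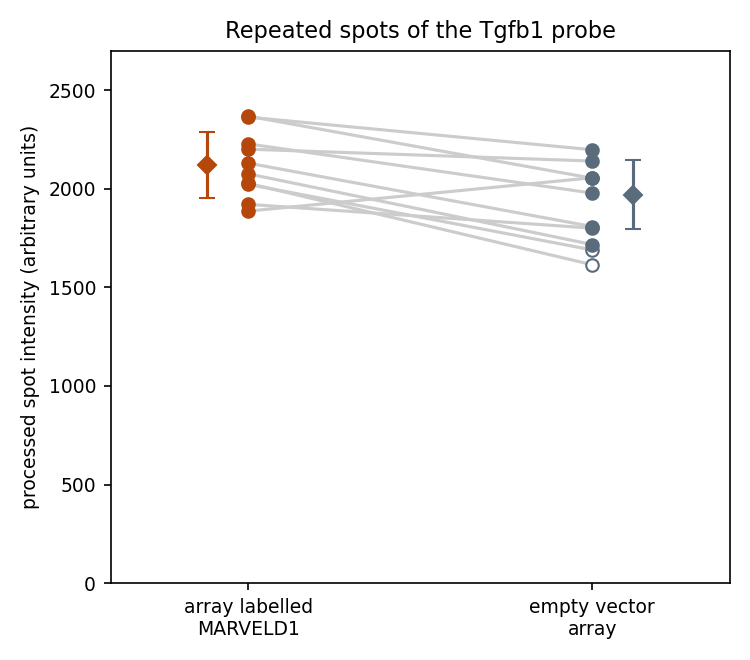
Intensity of each Tgfb1 spot on the array labelled MARVELD1 and the empty vector array, joined by position, with open symbols for spots marked as outliers and diamonds for the mean ± SD over the spots used. The mean is 2122 on the array labelled MARVELD1 and 1969 on the empty vector array, and the spots of the 2 arrays overlap.

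Tgfb3, a ligand known for its part in palate fusion, had an intensity of 3200.5 on the array labelled MARVELD1 and 5628.5 on the empty vector array (A_51_P124748, chr12:87397804-87397863, minus strand). That is a log2 difference of -0.69, 1.61-fold lower, and -0.83 relative to all probes, against a spot SD of 0.12 at this brightness. It lay at percentile 7.88 of all measured probes. Tgfb2, the third ligand, was not well above background on the array labelled MARVELD1, at 25.9, and read 44.7 on the empty vector array (A_51_P317640, chr1:188447534-188447593, minus strand). It read at least 1.08-fold lower on the array labelled MARVELD1, a bound set against the lowest well-measured intensity there. That bound, -0.11 on the log2 scale, is smaller in size than the spot SD of 0.49 at this brightness. The differences of Tgfb1 and Tgfb3 stood 0.92 apart on the log2 scale, with a combined spot SD of 0.22, and between 0.92 and 1.02 apart over the settings tried.

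Among the receptors, the 3 genes' brightest probes went different ways, with Tgfbr1 and Tgfbr3 lower and Tgfbr2 close to the all-probe median. Tgfbr1, the type I receptor kinase that phosphorylates Smad2 and Smad3, read 1369.5 on the array labelled MARVELD1 and 2407 on the empty vector array (A_52_P4538, chr4:47427421-47427480, plus strand). The log2 difference was -0.69, 1.61-fold lower, and -0.83 relative to all probes, with a spot SD of 0.19. Its second probe (A_51_P280137, chr4:47419898-47423556, a span of 3659 bases) read 12.2 on the array labelled MARVELD1 and 9.3 on the empty vector array and was well above background on neither.

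Tgfbr2 encodes the type II receptor, the kinase that binds ligand first. Its brightest probe read 4678.1 on the array labelled MARVELD1 and 4270.3 on the empty vector array (A_51_P450573, chr9:115997155-115997214, minus strand), a log2 difference of 0.26 and 0.11 relative to all probes. The probe 22041 bases upstream (A_52_P251403, chr9:116019196-116019255) read 40.7 on the array labelled MARVELD1 and 74.8 on the empty vector array, a log2 difference of -0.75 and the lowest of the 13. Its intensity lies where the spot SD is 0.49, and with normexp background correction and quantile normalization together the difference was -0.33. The probe 42690 bases upstream (A_52_P3811, chr9:116039845-116039904) read 124.3 on the array labelled MARVELD1 and 122.3 on the empty vector array, a log2 difference of 0.15, close to the all-probe median. The outer Tgfbr2 probes thus lay close to the all-probe median and the middle probe below it, and the dimmer pair lies in the brightness class where repeated spots scatter most.

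Tgfbr3, betaglycan, read 101.9 on the array labelled MARVELD1 and 135.7 on the empty vector array (A_51_P255899, chr5:107537905-107537964, minus strand). Its log2 difference of -0.29 is smaller than the spot SD of 0.49 in its brightness class, the dimmest, pooled without a filter on dim probes. The probe lies near the upper limit of that class, and the spot SD of the next class was 0.27. Between receptors, the difference of Tgfbr1 stood 0.95 below that of Tgfbr2 on the log2 scale, with a combined spot SD of 0.22. Over the settings tried this difference lay between -0.95 and -0.85. Tgfbr1 stood 0.40 below Tgfbr3, against a combined spot SD of 0.53.

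**Figure D3:**
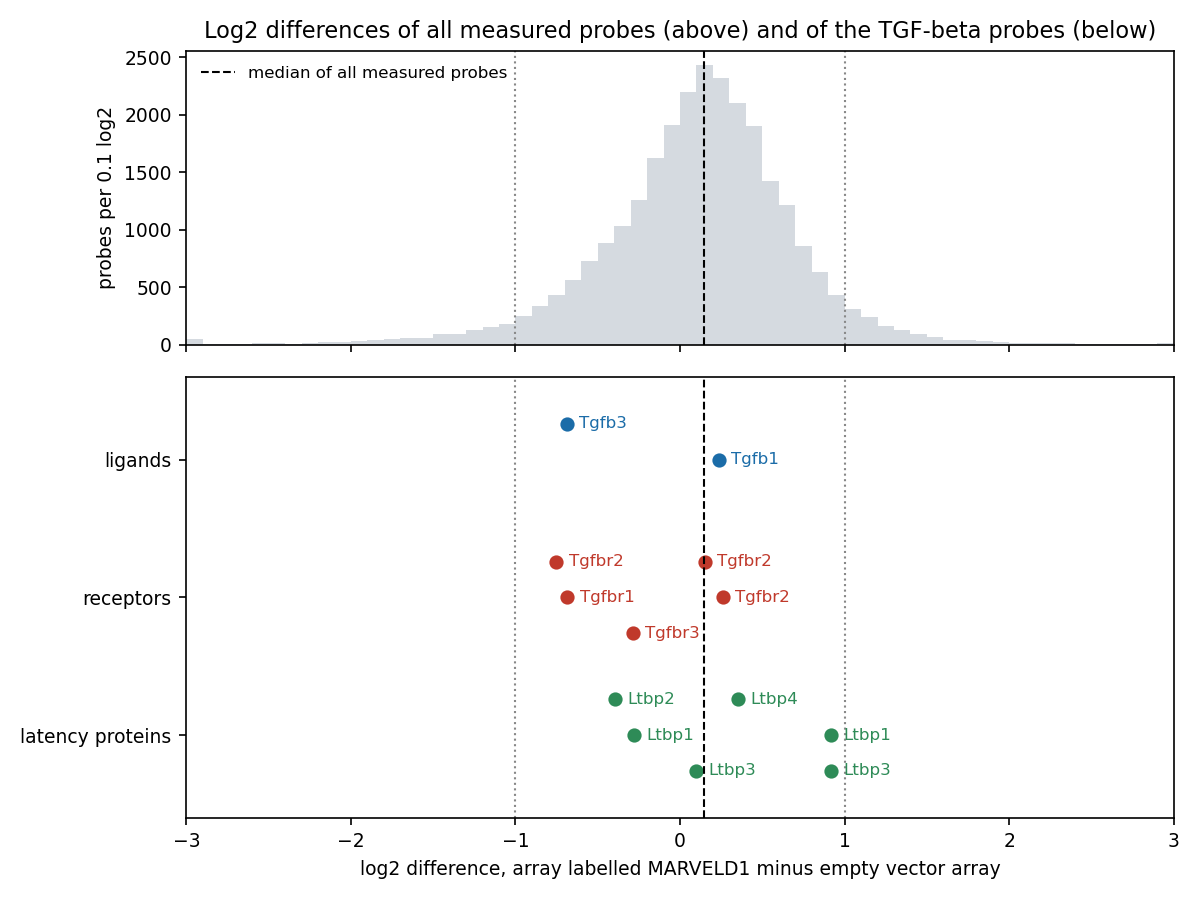
Histogram of the log2 difference, array labelled MARVELD1 minus empty vector array, of all 26802 probes measured on both arrays (bins of 0.1, values beyond 3 in the end bins, dashed line at the median of 0.15, dotted lines at 1 and -1), with the member probes marked below by role. All 13 marks lie between the dotted lines.

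The latency proteins read in both directions, with Ltbp3 the highest and Ltbp2 the lowest of the bright probes. Ltbp3 assists the folding and secretion of latent TGF-beta and is linked to bone and tooth development. Its brighter probe read 28987.7 on the array labelled MARVELD1 and 16770.9 on the empty vector array (A_51_P233101, chr19:5758289-5758346, plus strand). The log2 difference was 0.92, 1.89-fold higher, and 0.77 relative to all probes, with a spot SD of 0.12, at percentile 94.1 of all measured probes. Its other probe lies 6524 bases upstream (A_52_P652936, chr19:5751763-5751822) and read 292 on the array labelled MARVELD1 and 298.2 on the empty vector array, a log2 difference of 0.10 that changed sign between settings, from -0.05 to 0.11.

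Ltbp1, a matrix anchor of latent TGF-beta, also had probes that disagreed, in opposite directions. The brighter probe read 1442.6 on the array labelled MARVELD1 and 1915.8 on the empty vector array (A_51_P281716, chr17:75790058-75790191, a span of 134 bases), a log2 difference of -0.28. The probe 165479 bases upstream (A_52_P189946, chr17:75624653-75624712) read 222.2 on the array labelled MARVELD1 and 128.6 on the empty vector array, a log2 difference of 0.92, 1.89-fold higher. The spot SD was 0.19 for the first and 0.27 for the second.

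Probes of a gene that lie apart differed widely across the arrays. In 4628 genes with probes at least 500 bases apart, the difference at the 5′ probe minus that at the 3′ probe had a median of -0.28, with quartiles of -0.69 and 0.14, and 67.7% of genes lay below 0. For Ltbp1 that quantity was 1.20, at percentile 97.0 of those genes. For Ltbp3 it was -0.82, at percentile 19.0, and for Tgfbr2, from its outer probes, -0.11, at percentile 61.6. The part of probe position in the values of these genes was not tested.

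Ltbp2, which does not bind latent TGF-beta but associates with elastic fibres, read 13045.1 on the array labelled MARVELD1 and 18737.2 on the empty vector array (A_51_P257457, chr12:86124173-86124232, minus strand). Its log2 difference was -0.40, or -0.54 relative to all probes. Ltbp4, a partner of fibulins in elastic fibre assembly, read 5221.8 on the array labelled MARVELD1 and 4476.9 on the empty vector array (A_51_P403536, chr7:28090175-28090234, minus strand), a log2 difference of 0.35. Between the brightest probes, Ltbp2 stood 1.31 below Ltbp3, a 2.48-fold gap with a combined spot SD of 0.17, and Ltbp1 stood 1.20 below Ltbp3. Ltbp1 stood 0.11 above Ltbp2, within the combined spot SD of 0.22, but 0.30 above it after quantile normalization, 0.28 after loess and 0.40 with normexp and quantile normalization. These comparisons between members were added after the values were seen.

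By role, the 2 ligand probes measured on both arrays had a median log2 difference of -0.23, the 5 receptor probes -0.29 and the 6 latency probes 0.22, and the median of all probes was 0.15. Without the filter on dim probes the ligands' median was -0.66 and the receptors' -0.07, and the latency median was 0.05 with normexp and quantile normalization.

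**Figure D4:**
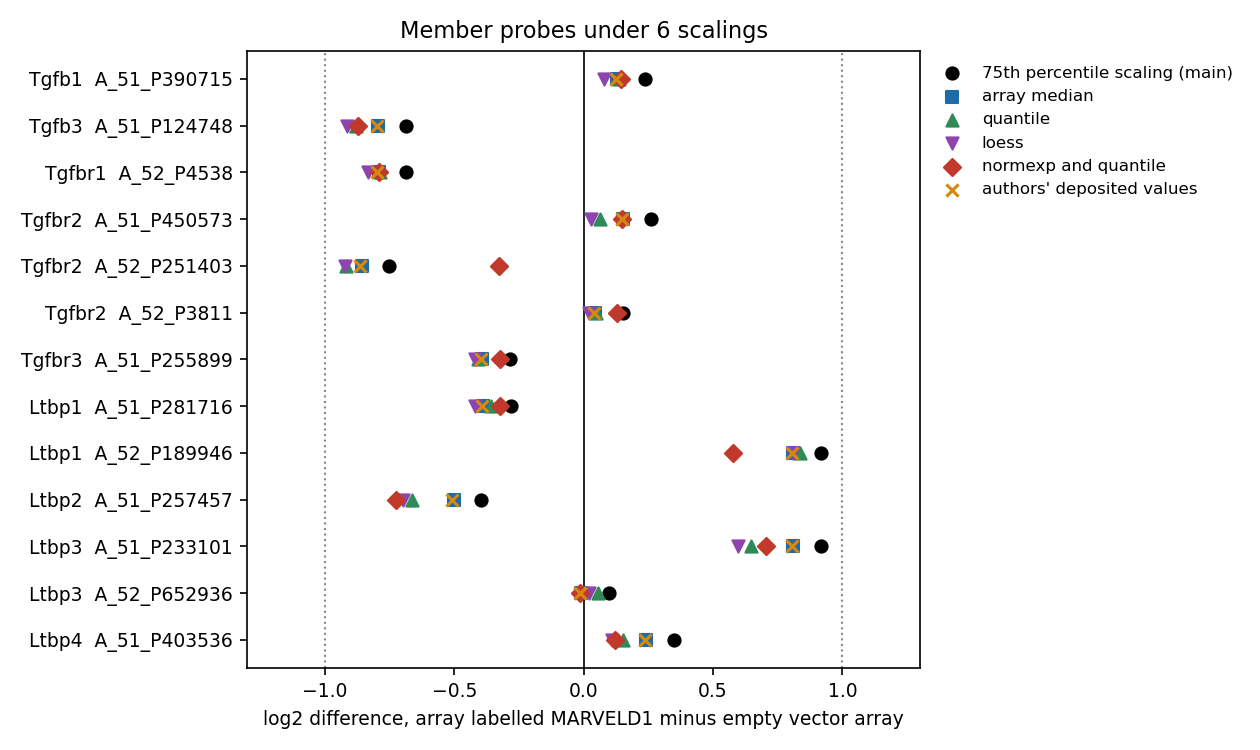
Log2 difference, array labelled MARVELD1 minus empty vector array, of the 13 member probes under 6 ways of scaling or background correction, with dotted lines at 1 and -1. Tgfb3 and the Tgfbr1 probe A_52_P4538 stay below 0 and the Ltbp3 probe A_51_P233101 above 0 in each, and no probe passes a dotted line.

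Beyond the members, 7 lists of genes around them held 104 genes, of which 97 were well above background on at least 1 array. At 2-fold, 5 were higher and 9 were lower on the array labelled MARVELD1, where 5.38% and 3.51% of all genes were. Their median log2 difference was 0.07, against 0.18 for all genes, and the medians of the matrix partners and of the antagonists given below were under 0 after array median scaling. Of these 9 lower genes, 6 were among the 28 tested target genes of TGF-beta in fibroblasts and 3 among the 7 tested matrix partners of the latent complex.

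The matrix partners gave 0 genes higher and 3 lower at 2-fold, where 5.38% and 3.51% of all genes were. Their median was 0.08. Fbln5, a fibulin of elastic fibres, read 3926.3 on the array labelled MARVELD1 and 35280.1 on the empty vector array, 8.23-fold lower. Fbn1, the fibrillin to which latent complexes bind, read 1910.9 on the array labelled MARVELD1 and 5203.6 on the empty vector array, 2.49-fold lower. Fn1, fibronectin, read 4097.8 on the array labelled MARVELD1 and 9734.6 on the empty vector array, 2.18-fold lower, and in both genes the other probe measured on both arrays was lower still, at log2 differences of -2.13 and -2.47. Mfap5, a microfibril protein, read 547.3 on the array labelled MARVELD1 and 314.1 on the empty vector array, 1.90-fold higher.

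By the brightest probe of each gene, the activators of latent TGF-beta gave 2 of 15 higher and 0 lower at 2-fold. Of all genes 5.38% were higher and 3.51% lower. The median of the activators was -0.05. Other probes of Mmp14, Plat and Itgb1 were past 2-fold lower, at log2 differences of -1.17, -1.20 and -1.80. The other Itgb3 probe was past 2-fold higher, at 1.14. Itgb8, the integrin subunit that binds latent TGF-beta, read 254.8 on the array labelled MARVELD1 and 101.5 on the empty vector array, 2.74-fold higher, while its other probes differed by 0.31 and 0.10 on the log2 scale. With normexp and quantile normalization Itgb8 was just under the limit, at a log2 difference of 0.997. Plau, the urokinase protease, read 135.5 on the array labelled MARVELD1 and 71.7 on the empty vector array, 2.06-fold higher, and was under 2-fold after array median scaling, at a log2 difference of 0.94. Mmp2, a gelatinase, read 8247.9 on the array labelled MARVELD1 and 17408.3 on the empty vector array. Itgb5, another integrin subunit, read 16605.2 on the array labelled MARVELD1 and 33975.3 on the empty vector array. Both were just inside the limit, at log2 differences of -0.95 and -0.91, and passed it after array median scaling, at -1.06 and -1.01.

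The antagonists and co-receptors gave 0 of 8 past 2-fold, where 8.9% of all genes were, with a median of 0.01. Cd109, a co-receptor that dampens signalling, read 13993.2 on the array labelled MARVELD1 and 24487.2 on the empty vector array, a log2 difference of -0.68. Its other probes were past 2-fold lower, at log2 differences of -1.23 and -1.07. Nrp1, a co-receptor better known for semaphorin and VEGF binding, differed by 0.79 on the log2 scale at the probe with its highest mean log2 intensity. Another Nrp1 probe read 420.3 on the array labelled MARVELD1 and 42.4 on the empty vector array, a log2 difference of 3.44, and a further one differed by 0.33. Which probe stands for Nrp1 decides its call: 1 of the 8 genes was 2-fold higher with normexp and quantile normalization, with the mean of a gene's probes and with its most 3′ probe. The other type I and type II receptors gave 1 of 8 higher and 0 lower, where 5.38% and 3.51% of all genes were. Their median was 0.33. Acvr1b, an activin type I receptor, read 6492.3 on the array labelled MARVELD1 and 3344.3 on the empty vector array, a log2 difference of 1.08, and 0.98 after array median scaling. The other ligands of the superfamily gave 0 of 6 past 2-fold, where 8.9% of all genes were. Their median was 0.39. The highest of them, Bmp6, read 172.4 on the array labelled MARVELD1 and 95.4 on the empty vector array, 1.97-fold higher.

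The Smads and signalling regulators gave 1 of 25 higher and 0 lower, where 5.38% and 3.51% of all genes were. Their median was 0.20, close to that of all genes, and -0.09 with the mean of a gene's probes. The probes of Smad4, the common Smad, disagreed, at log2 differences of 0.48 and -1.47, and with the most 3′ probe of each gene 1 gene was 2-fold lower. Smad7, the inhibitory Smad, read 123.4 on the array labelled MARVELD1 and 59.9 on the empty vector array, 2.25-fold higher, and its log2 difference of 1.17 was 0.59 with normexp and quantile normalization. Smad6, another inhibitory Smad, read 386.9 on the array labelled MARVELD1 and 701.6 on the empty vector array, a log2 difference of -0.73.

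The target genes gave 1 of 28 higher and 6 lower at 2-fold, where 5.38% and 3.51% of all genes were. Their median was -0.17, or -0.35 relative to all genes. Timp3, a metalloprotease inhibitor, read 79.7 on the array labelled MARVELD1 and 2146.8 on the empty vector array, 24.7-fold lower, and its log2 difference of -4.62 was -3.96 with normexp and quantile normalization. Tagln, an actin-binding protein of contractile cells, read 778.4 on the array labelled MARVELD1 and 8245.7 on the empty vector array, a log2 difference of -3.28. Tgfbi, a matrix protein named for its induction by TGF-beta, read 649.4 on the array labelled MARVELD1 and 1899 on the empty vector array, 2.68-fold lower. Id2, Id3 and Col3a1 were the other genes past 2-fold lower, at log2 differences of -3.71 (-2.74 with normexp and quantile normalization), -1.14 and -1.56, although the second probe of Col3a1 differed by only -0.10. Postn, the matrix protein periostin, read 234.2 on the array labelled MARVELD1 and 92.6 on the empty vector array, 2.76-fold higher, while its other probe differed by -0.20, and its log2 difference was 0.96 with normexp and quantile normalization, under the limit. Of the 28 genes, 12 lay above 0 and 16 below. The probes of Acta2 and Col1a1 also disagreed. Acta2 read 108113 on the array labelled MARVELD1 and 83507.8 on the empty vector array at its brightest probe, 1.42-fold higher. Its other detected probes were 2.47-fold lower and 2.21-fold higher, and a dim one had a bound of 2.70-fold higher. Col1a1 was 1.25-fold lower at its brightest probe and 3.04-fold lower at another, and its dimmest probe was 1.25-fold lower.

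**Figure D5:**
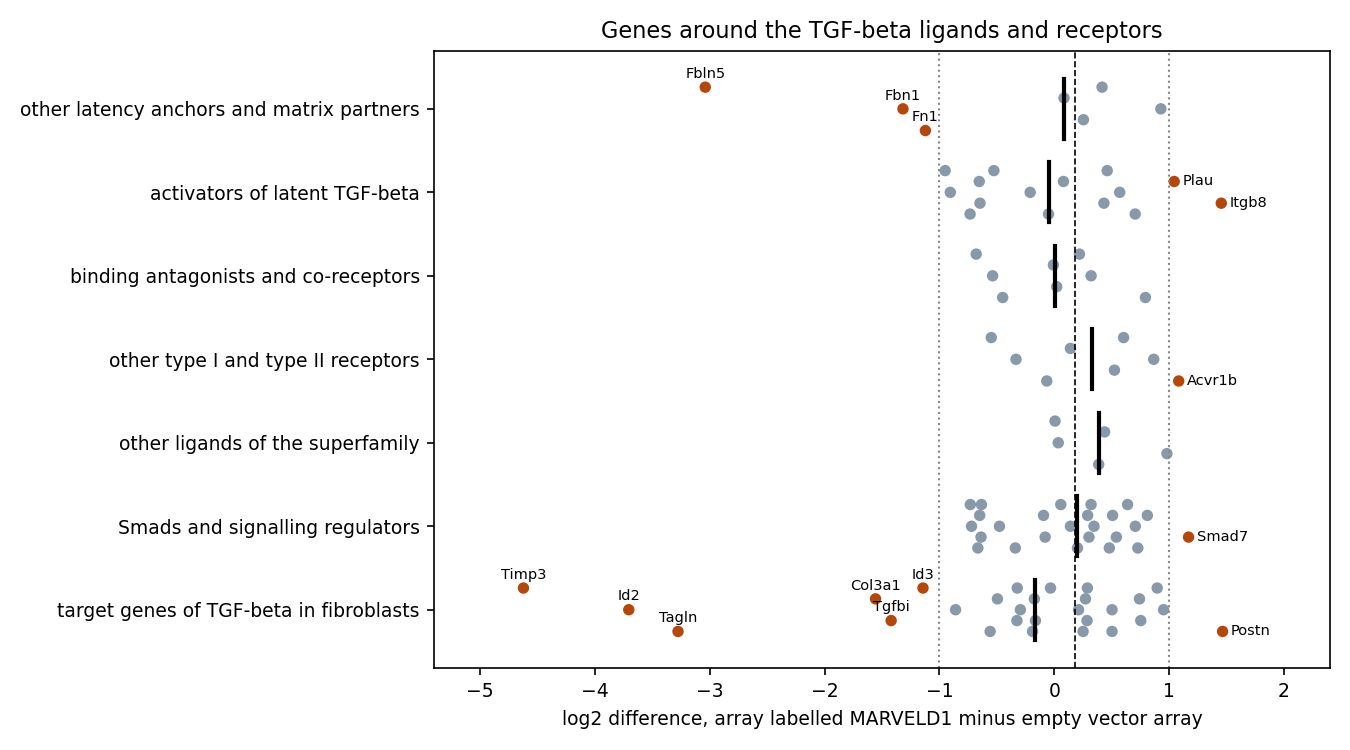
Log2 difference, array labelled MARVELD1 minus empty vector array, of each gene measured on both arrays in the 7 lists, with orange dots past 2-fold, a bar at each list's median and a dashed line at the median of all genes. The lowest dots belong to the target genes and the matrix partners of the latent complex.

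Markers of the labelled cell type were detected on both arrays. Of 10 fibroblast markers, 4 of which are also in the lists above, 0 were higher and 3 lower at 2-fold, where 5.38% and 3.51% of all genes were. The 3 were Pdgfrb, at a log2 difference of -2.10, and Col3a1 and Fn1, already counted in the lists above. Of the 10 markers, 8 lay below 0 and 2 above. These 2 were Vim and S100a4, at 0.21 and 0.25, and both changed sign between settings. The median log2 difference of the markers was -0.56, against 0.18 for all genes. Their summed intensity was 583332 on the array labelled MARVELD1 and 746924 on the empty vector array. Of 5 epithelial markers, Epcam, Cdh1 and Krt19 were well above background on neither array. Among the 2 tested, 1 was past 2-fold higher, where 5.38% of all genes were. This was Krt18, at 78.7 on the array labelled MARVELD1 and 19.4 on the empty vector array. It was not well above background on the empty vector array, so its 2.35-fold is a bound near background. Krt8 differed by 0.08 on the log2 scale, and its dimmer probe had a bound of 2.77-fold higher. The 5 endothelial markers summed to 1409 on the array labelled MARVELD1 and 1887.1 on the empty vector array, and the 6 macrophage and lymphoid markers to 2309.7 and 2071.1, with 0 past 2-fold in each list. The endothelial median log2 difference was 0.25, and the lower sum came from Cdh5, at 708.5 on the array labelled MARVELD1 and 1288.6 on the empty vector array. The samples are of an established fibroblast line, so these readings are not counts of other cell types. Fewer cells expressing a gene and less of its RNA per cell cannot be told apart in such bulk samples. The part of these markers in the values of the members was not tested.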

How the data were processed

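Intensity values were deposited as scanner output: per the file headers, Agilent Feature Extraction 9.5.3.1, a tool the submitters' processing notes also name, subtracted background and detrended each array. A second deposited table, of 26851 probes, holds the authors' normalized intensities and for probes with 1 spot equals those readings, within 1%, divided by 1 factor per array, 123.3 for the array labelled MARVELD1 and 124.6 for the empty vector array. Other steps: not given in the sources used here. Each array had 43379 non-control spots. Both arrays lay on 1 slide and were read in 1 scan. Outlier spots, 223 on the array labelled MARVELD1 and 116 on the empty vector array, were left out, none (0) were saturated, log2 values were scaled to the 75th percentile and spots of a probe averaged. A probe counted as detected when no fewer of its spots were than were not well above background, and the lowest well-measured intensity, 38.1 on the array labelled MARVELD1 and 36.6 on the empty vector array, sets bounds. Probes were named through a RefSeq table of GRCm38.p6, used for names only, and a gene is represented by its brightest probe. With 1 array per group no test or p-value exists, and their number limits the precision. Computation used Python 3.11.15, pandas 2.3.3, numpy 2.4.6, R 4.3.3 and limma 3.58.1, and was tested on simulated data. All members are named, with, from each list, the highest and lowest genes and those past 2-fold, of which the text gives a selection made with values seen. Some genes whose probes disagreed are named too, also chosen with values seen. Members, lists and rules were chosen with earlier results of these data known.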

Additional observations from a re-analysis of the deposited data

How the results depend on the processing

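Over 9 alternative settings no member probe passed 2-fold, and those changing sign were limited to the Ltbp3 probe A_52_P652936. Without the filter on dim probes, which adds probes to the 29537 well above background on at least 1 array, 4937 were past 2-fold. With the filter, 3077 of the 29537 were, against 1399 with normexp and quantile normalization, 8714 at 1.5-fold and 900 at 3-fold. Of those past 2-fold 56.4% were higher on the array labelled MARVELD1, against 44.2% after array median scaling, 44.9% after quantile normalization, 41.2% after loess, 40.9% with normexp and quantile normalization, 40.1% in the authors' deposited values and 40.0% after centring on the median of all measured probes, which was added after seeing the data. Without the filter the ligands' median was -0.66, since it then includes the dim Tgfb2, and the receptors' was -0.07, since it includes the dim Tgfbr1 probe. The latency median of 0.22 lay between 0.05 and 0.12 under the other scalings. At 1.5-fold 2 member probes were higher and 3 lower. Of the pathway genes 5 were 2-fold higher and 9 lower, against 3 and 11 after array median scaling and in the authors' values, 3 and 12 after quantile normalization, loess or centring, 1 and 13 with normexp and quantile normalization, 2 and 9 when all probes of a gene were averaged, and 5 and 12 with the most 3′ probe. The 1 gene higher with normexp and quantile normalization was Nrp1, at a log2 difference of 2.25 through another of its probes, and the 5 above (Itgb8, Plau, Acvr1b, Smad7 and Postn) were all under 2-fold there. For the other differences the cause was not tested. No paired analysis was possible because each group has 1 array, and no replicate could be left out. Tgfb2 and the Tgfbr2 probe A_52_P251403 lie near background, which limits their values. Tgfbr3 and the Tgfbr2 probe A_52_P3811 are brighter but still in the dimmest of the brightness classes.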

Other observations

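A pair of probes outside the rule are described in the files as latent TGF-beta binding protein sequences, and they were chosen after their values were seen. The first, AK144083 (A_52_P102722), is described as a clone of Ltbp2, lies on the opposite strand to the Ltbp2 probe (mm9, chr12:86218646-86218705) and read 263.7 on the array labelled MARVELD1 and 587.2 on the empty vector array, a log2 difference of -1.03. The second, TC1598025 (A_52_P639907), lies between the Ltbp3 probes (chr19:5754724-5754783) and read 232.6 on the array labelled MARVELD1 and 154.6 on the empty vector array, a log2 difference of 0.72. On the same scale the Ltbp2 probe itself differed by -0.40, and the Ltbp3 probes by 0.92 (A_51_P233101) and 0.10 (A_52_P652936).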
